A study of Mus musculus with 4 samples.

Results

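A set of 34 somatic cell marker genes of the testis was examined in RNA that co-precipitated with testis-specific serine kinase TSSK2 from mouse germ cells. The set comprised 19 Sertoli cell genes, 8 Leydig cell genes and 7 genes of peritubular and interstitial cells. The members were taken by name, and all 34 were found among the 21936 gene identifiers of the count table. The question put to them was whether mRNAs of non-germ cells differed between TSSK2-IP and control IgG-IP.

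Sertoli cells line the seminiferous tubule, nurse the germ cells and secrete hormones and growth factors. Leydig cells lie between the tubules and make testosterone from cholesterol. Peritubular myoid cells form a thin contractile sheath around each tubule, within an interstitium of fibroblasts, vessels and macrophages. TSSK2, by contrast, is a kinase of elongating spermatids that marks the late chromatoid body, a cytoplasmic granule rich in RNA and protein. Some of the markers, such as Vim, Ctsl and Igf1, are also transcribed in cell types outside the somatic testis.

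All 4 libraries came from testes of adult C57BL/6 mice older than 8 weeks. Tubules were minced and digested with collagenase, and the cells that passed a strainer were cross-linked with paraformaldehyde, lysed and sonicated. The pellet fraction was then precipitated with an anti-TSSK2 antibody (TSSK2-IP, 2 libraries) or, as its negative control, with mouse IgG (control IgG-IP, 2 libraries). No step that sorted cell types was described, and the GEO labels name the tissue only as testis. Neither the labels nor the methods state whether replicates came from different mice, so p-values measure only the spread between these samples, which may be technical. The co-IP protocol, to which the methods refer for this step, split the lysate evenly between TSSK2 and IgG beads. Whether same-numbered libraries shared a lysate is not stated.

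The libraries held between 3938922 and 9858941 counts, the highest total being that of control IgG-IP replicate 1. Levels are given as counts scaled to 1000000 after TMM normalization (normalized CPM), in which 1 count was worth between 0.156 and 0.23. The TMM factor was 0.652 in control IgG-IP replicate 1 and between 1.12 and 1.18 in the other libraries. The control libraries stood further apart than the TSSK2-IP libraries: 40.8% of the 14722 tested genes differed at least 2-fold between the controls, against 4.95% between the TSSK2-IP libraries. Counts of calls, list medians and the leading markers are therefore also given without control IgG-IP replicate 1 or replicate 2. A design of 2 against 2 allows no two-sided exact permutation p under 0.333. The p-values therefore come from edgeR's quasi-likelihood test, or from DESeq2 where it is named, in which genes share information on the spread.

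The somatic markers were present in every library at low levels. Their counts summed to 1067 and 1050 in TSSK2-IP replicates 1 and 2 and to 561 and 860 in control IgG-IP replicates 1 and 2. As raw CPM, that is per 1000000 raw counts of a library, this was 257 in TSSK2-IP replicate 1 (95% Wilson interval 242 to 272) and 234 in TSSK2-IP replicate 2 (220 to 248). It was 56.9 in control IgG-IP replicate 1 (52.4 to 61.8) and 218 in control IgG-IP replicate 2 (204 to 233). Control IgG-IP replicate 1 thus stood alone at the low end, and control IgG-IP replicate 2 lay just under both TSSK2-IP libraries, with an interval that overlapped that of TSSK2-IP replicate 2. The intervals cover counting error only and not the spread between replicates. The methods mention no molecular identifiers, so copies of a molecule may be counted more than once and the intervals may be too narrow.

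The same order of libraries was seen in the Sertoli cell and Leydig cell groups, and control IgG-IP replicate 1 was lowest in all 3 groups. Sertoli cell markers summed to 125, 106, 24.7 and 99.3 raw CPM in TSSK2-IP replicates 1 and 2 and control IgG-IP replicates 1 and 2. Leydig cell markers summed to 54.4, 50.1, 13.0 and 46.7 raw CPM, and peritubular and interstitial markers 77.2, 78.1, 19.2 and 72.4. The controls differed 3.84-fold in the summed raw share of the 34 markers. They differed 2.26-fold after TMM scaling, at 87.5 and 198 normalized CPM, beside 221 and 200 in TSSK2-IP replicates 1 and 2. The libraries do not measure how many somatic cells, or how much somatic RNA, entered each precipitation. The cause of the difference between the controls was not tested.

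**Figure D1:**
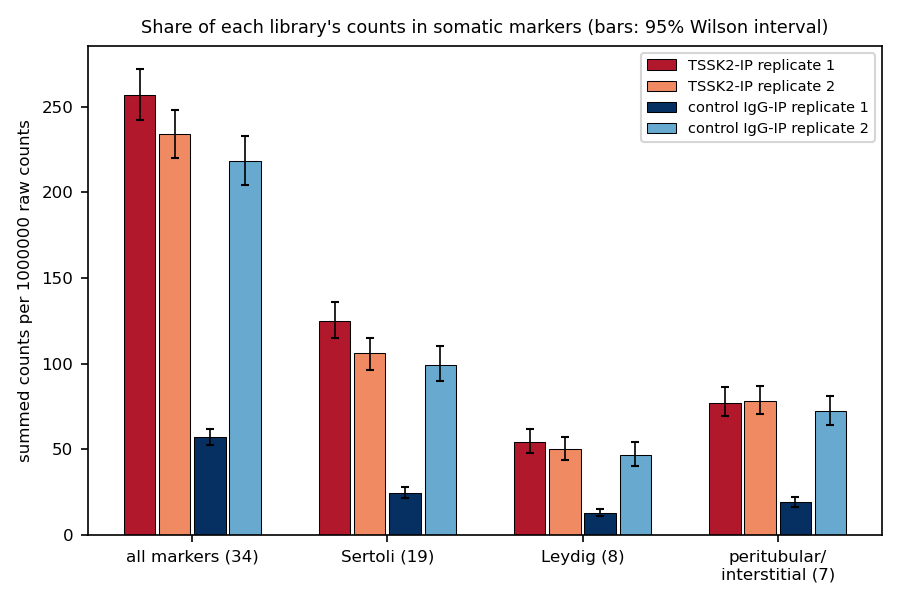
Summed counts of the somatic marker genes per 1000000 raw counts of each library (y axis, linear from 0), for all 34 markers and for the 3 cell groups with the number of genes in brackets; error bars are 95% Wilson intervals and cover counting error only. For all 34 markers, 3 libraries sit between 218 and 257, and control IgG-IP replicate 1 at 56.9.

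To place the markers among all transcripts, normalized CPM was divided by the length of the union of each gene's exons in kb and averaged over the 4 libraries. On this scale the median marker was at 1.10 CPM per kb, with a range from 0.323 for Fshr, the receptor for follicle-stimulating hormone, to 4.89 for Clu, which encodes the secreted chaperone clusterin. The median over 21234 genes with a length and a count was 1.46 CPM per kb. The markers thus lay in the lower and middle part of the distribution, between its 14.5 and 68.5 percentile, and 19 of 34 were under its median. A list of 15 spermatid genes had a median of 499 CPM per kb, with the lowest gene at 30.7, above every somatic marker. Spermatocyte genes had a median of 48.8 and spermatogonial genes of 1.69 CPM per kb. Other somatic cells were as low as the markers, with medians of 1.07 CPM per kb for 12 macrophage genes, 0.924 for 10 endothelial genes and 0.793 for 5 red blood cell genes. The spermatid list had the highest median of these lists, whereas the 34 somatic markers had 0 to 141 counts in a library. Some genes of the further lists were more abundant, such as Actg2, an actin gene of smooth muscle, at 102 CPM per kb. Tjp1, which encodes a tight junction protein, was at 21.1, and both were picked out after their values were seen. Unlike most markers, Tjp1 was highest in control IgG-IP replicate 1, at 243 normalized CPM. It had 145 and 129 in TSSK2-IP replicates 1 and 2 and 144 in control IgG-IP replicate 2. Whether the reads of these genes came from somatic cells was not tested.

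**Figure D2:**
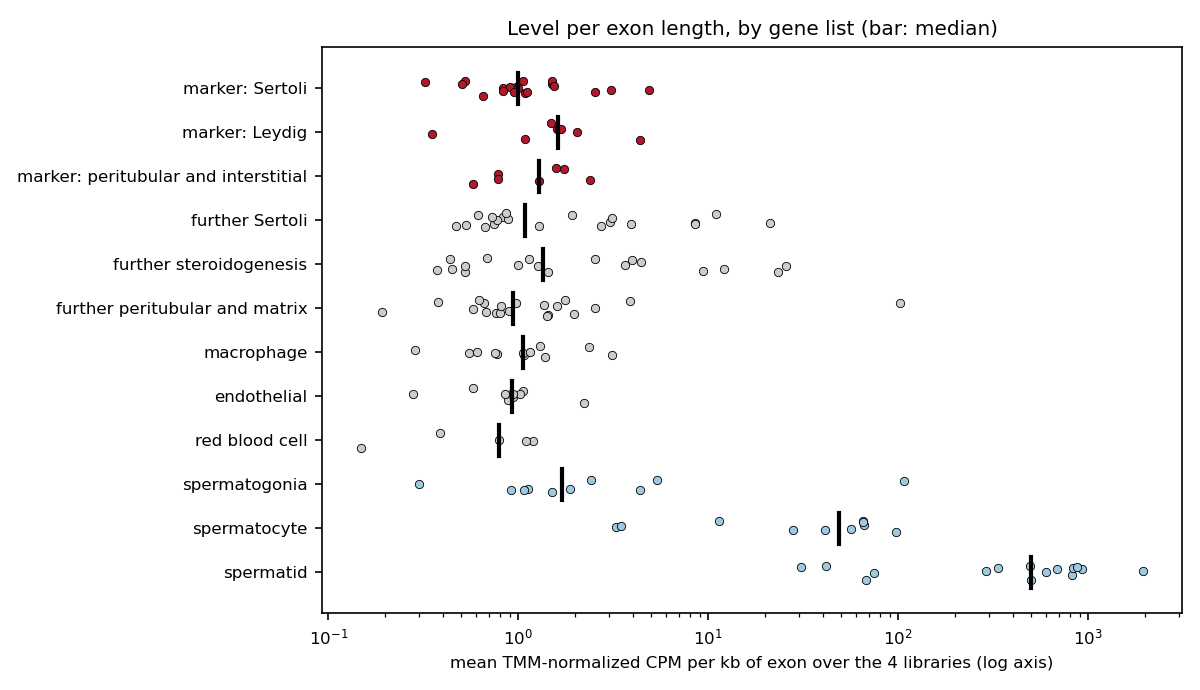
Mean level of each gene over the 4 libraries in TMM-normalized CPM per kb of exon (x axis, logarithmic), by gene list (y axis); points are genes and black bars are medians. The 3 somatic marker groups lie between 0.323 and 4.89 CPM per kb, whereas all 15 spermatid genes lie at 30.7 or above.

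In the comparison of TSSK2-IP with control IgG-IP, no somatic marker passed the test. The low-count filter kept 29 of 34 members, 15 of Sertoli cells, 7 of Leydig cells and all 7 peritubular and interstitial genes. It removed Rhox5, Fshr, Cst12, Cldn11 and Insl3. Of the 29, none was called higher (log2 fold change of 1 or more and Benjamini-Hochberg adjusted p of at most 0.05 in edgeR's quasi-likelihood test), beside 0.693% of all 14722 tested genes. None was called lower either, and 0.0% of all tested genes were. The smallest adjusted p of a member was 0.305 in this test, for Pdgfra, and DESeq2 called no member either (0.752% of its genes were called higher and 0.0047% lower). At an unadjusted p under 0.05 in edgeR's test, 3 members (10.3%) were higher, Pdgfra, Dhh and Gja1, beside 8.34% of all tested genes. No member was lower at this level, beside 4.89% of all tested genes. Leaving out TSSK2-IP replicate 1 or replicate 2 left 0 members at this level in the same test, beside 1.87% and 1.92% of all tested genes higher.

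Fold changes of the tested markers lay mostly above 0. The log2 fold change was above 0 for 23 of 29 members (79.3%), beside 49.2% of all tested genes. Its median was 0.51 over the tested members, 0.56 in Sertoli cell genes, 0.63 in Leydig cell genes and 0.33 in peritubular and interstitial genes, beside -0.02 over all tested genes. Both TSSK2-IP libraries were above both controls in normalized CPM for 11 tested members (37.9%), beside 27.3% of all tested genes. Both were below both controls for 1 member, Acta2 (3.45%), beside 21.6% of all tested genes, and the groups overlapped for the remaining 17. A gap of at least 2-fold between each TSSK2-IP and each control library was found for 1 tested member, Dhh, beside 4.01% of all tested genes, and no member was at least 2-fold lower throughout, beside 0.312%. Of the untested members, Cst12 and Cldn11 were also higher in both TSSK2-IP libraries.

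**Figure D3:**
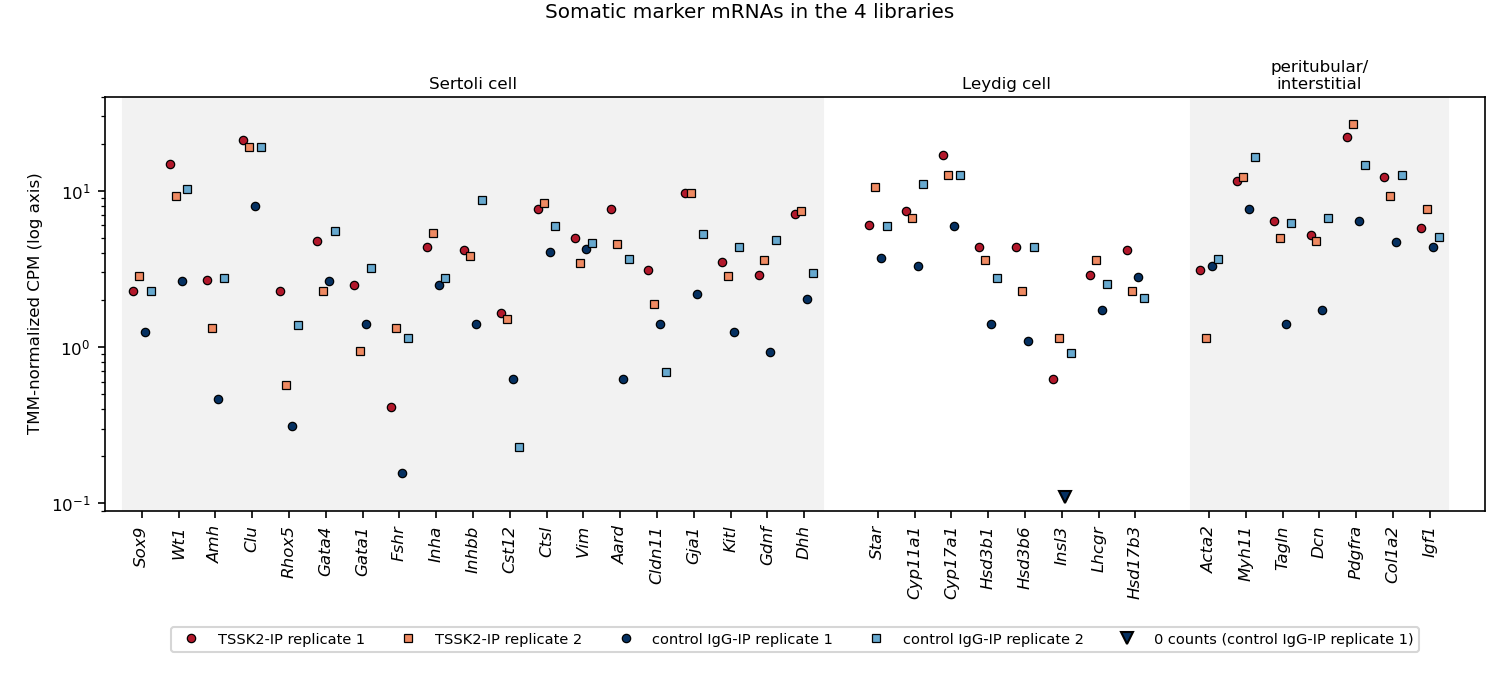
TMM-normalized CPM (y axis, logarithmic) of each of the 34 somatic markers (x axis) in the 4 libraries, grouped by cell type; each symbol is 1 library and the triangle marks Insl3 at 0 counts in control IgG-IP replicate 1. Control IgG-IP replicate 1 is the lowest point for most markers, among the tested ones for 24 of 29.

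These shifts depended on which control library was used. Without control IgG-IP replicate 1, the median log2 fold change of the 29 tested members was 0.08, with 0.08 in Sertoli cell, 0.37 in Leydig cell and -0.23 in peritubular and interstitial genes, and 15 of 29 were above 0 (50.2% of all tested genes). When replicate 2 of the control was left out instead, the median was 1.27, with 1.28, 1.09 and 1.15 in the 3 groups, and 27 of 29 were above 0 (54.7%). With replicate 1 left out, no member was called higher, beside 5.47% of all tested genes. At an unadjusted p under 0.05 in edgeR's test, Pdgfra, Dhh and Gja1 were still higher (17.3% of all tested genes) and Inhbb was lower (11.6%). With replicate 2 left out, 11 members were called higher by edgeR's quasi-likelihood test, beside 19.4% of all tested genes, and 16 were higher and 0 lower at an unadjusted p under 0.05 (28.0% and 29.4%). The 11 were the Sertoli cell genes Wt1, Clu, Aard, Gja1 and Dhh, the Leydig cell genes Star and Cyp17a1, and Tagln, Dcn, Pdgfra and Col1a2. In each of these fits the lone control library is assumed to vary like the TSSK2-IP libraries.

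The difference between the control libraries was itself marked in these genes. Control IgG-IP replicate 1 was the lowest of the 4 libraries for 24 of 29 tested members (82.8%), beside 42.2% of all tested genes. On the log2 CPM scale, control IgG-IP replicate 2 exceeded replicate 1 in 28 of 29 members (54.2% of all tested genes), by a median of 1.08 (0.15 over all tested genes). The exception was Hsd17b3, at -0.38. Of the 29, 17 (58.6%) were at least 2-fold apart between the controls, but 2 between the TSSK2-IP libraries, Gata1 and Acta2.

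Genes of similar abundance showed the same tendency to a smaller extent. Among the 7259 tested genes with a mean log2 CPM between 0.96 and 4.01, the range of the members, the median difference between controls was 0.77 and control IgG-IP replicate 1 was the lowest library for 57.8%. Their median log2 fold change was 0.11, and 55.7% of them were above 0. Over all tested genes, Spearman's rho between mean log2 CPM and the control difference was -0.64, a description across genes, which are not independent replicates. The 15 spermatid genes, the most abundant list, had a median control difference of -0.35. Whether these differences between the control libraries account for the fold changes of the somatic markers was not tested.

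**Figure D4:**
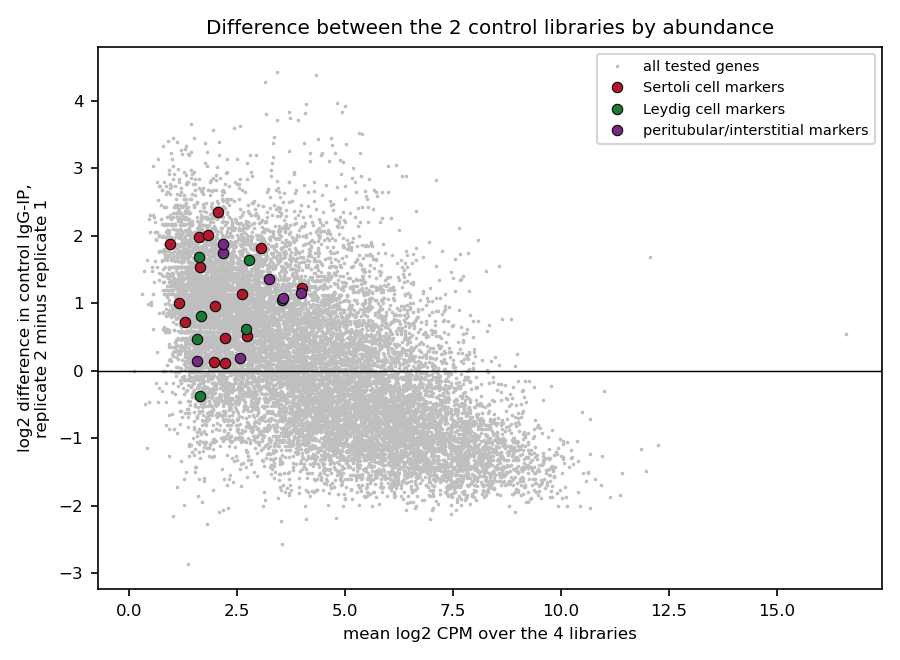
Difference in log2 CPM between control IgG-IP replicate 2 and replicate 1 (y axis) against mean log2 CPM over the 4 libraries (x axis) for all 14722 tested genes (grey) and the 29 tested somatic markers (coloured by cell type). All but 1 of the markers lie above 0, with a median of 1.08, in the part of the plot where low-abundance genes lie.

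Among the Sertoli cell genes that encode transcription factors, Sox9 and Wt1 define the cell type, Wt1 being required to keep its identity. Sox9 had 2.28 and 2.85 normalized CPM in TSSK2-IP replicates 1 and 2 and 1.25 and 2.30 in control IgG-IP replicates 1 and 2. Wt1 had 14.9 and 9.32 in TSSK2-IP against 2.65 and 10.3 in the controls. The groups overlapped for both, with the lowest value in control IgG-IP replicate 1. Fold changes on the log2 scale were 0.56 ± 0.89 (SE) for Sox9 and 0.93 ± 0.60 for Wt1, with adjusted p of 0.805 and 0.497 in edgeR's quasi-likelihood test. Without control IgG-IP replicate 1, that of Wt1 was 0.23. Gata4 and Gata1, which encode zinc finger factors of gonadal transcription, had log2 fold changes of -0.20 and -0.40, and neither passed. Rhox5, a homeobox gene on the X chromosome that responds to androgen, had between 2 and 11 counts and was not tested.

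Of the Sertoli cell hormones and growth factors, Dhh had the clearest separation of the groups. It encodes desert hedgehog, a ligand that signals from Sertoli cells to Leydig and peritubular cells. Its level was 7.05 and 7.42 normalized CPM in TSSK2-IP replicates 1 and 2 (34 and 39 counts) and 2.03 and 2.99 in control IgG-IP replicates 1 and 2 (13 and 13 counts). Both TSSK2-IP libraries thus stood more than 2-fold above both controls. Its log2 fold change was 1.54 ± 0.64 (SE), with an unadjusted p of 0.0308 and an adjusted p of 0.338 in edgeR's quasi-likelihood test. Leaving out control IgG-IP replicate 1 gave 1.27, and leaving out replicate 2 gave 1.77. Dhh lies on chromosome 15 (98891152 to 98898540, minus strand, GRCm38), and 12.4% of its exon bases are also exon of the neighbouring Rhebl1 on the same strand. A further overlap, of 25.2%, is with the antisense gene Gm49442. Rhebl1 itself had 19, 16, 20 and 24 counts and a log2 fold change of -0.29. How reads in the shared stretch were assigned is not given in the sources used here, so the level of Dhh is uncertain to that extent.

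Amh encodes anti-Müllerian hormone, which immature Sertoli cells secrete to regress the Müllerian ducts and which falls at puberty. Its level was 2.70 and 1.33 normalized CPM in TSSK2-IP against 0.468 and 2.76 in the controls, the latter being the lowest and the highest of the 4 libraries. Its log2 fold change was 0.38 ± 1.05 (SE). Inha, which encodes the alpha subunit of inhibin, a feedback inhibitor of follicle-stimulating hormone, had 4.35 and 5.33 in TSSK2-IP against 2.50 and 2.76 in the controls. The groups did not overlap for Inha, and both controls were close together. Its log2 fold change was 0.88 ± 0.70, with an adjusted p of 0.577 in edgeR's quasi-likelihood test, and it stayed between 0.73 and 1.02 when any library was left out. The beta B subunit gene Inhbb gave -0.31 and turned from -1.13 to 1.44 depending on which control was left out. Kitl and Gdnf, whose products act on spermatogonia through the receptors KIT and RET with GFRA1, both had a log2 fold change of 0.22, with overlapping groups.

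Fshr, the receptor through which follicle-stimulating hormone acts on Sertoli cells, had 2 and 7 counts in TSSK2-IP against 1 and 5 in the controls. This corresponds to 0.415, 1.33, 0.156 and 1.15 normalized CPM, of which the first and the third are under the level of 3 counts in their libraries (0.622 and 0.468), and no difference was detectable at this depth. Without the low-count filter its log2 fold change was 0.53 ± 1.32 (SE).

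Among the secreted proteins of Sertoli cells, Clu had the highest level per length of all 34 markers. It had 21.1 and 19.0 normalized CPM in TSSK2-IP against 7.96 and 19.1 in the controls, so that control IgG-IP replicate 2 was level with both TSSK2-IP libraries and replicate 1 was low. For Clu the log2 fold change was 0.58 ± 0.47 (SE), with an adjusted p of 0.583 in edgeR's quasi-likelihood test, and 0.08 without control IgG-IP replicate 1. The lysosomal protease gene Ctsl, also secreted by Sertoli cells, had a log2 fold change of 0.69 with both TSSK2-IP libraries above both controls. Of its exon bases, 6.09% are also exon of the processed pseudogene Gm49230 and 26.8% lie opposite the antisense gene Gm47123. Cst12, a cystatin gene, had 8 and 8 counts in TSSK2-IP against 4 and 1 in the controls (1.66, 1.52, 0.624 and 0.230 normalized CPM). Each TSSK2-IP value of Cst12 was more than 2-fold above each control value, but the gene was too low to be tested, and without the filter the log2 fold change was 1.72 ± 1.21 (SE; adjusted p = 0.578 in edgeR's quasi-likelihood test).

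Aard, an alanine- and arginine-rich protein gene enriched in Sertoli cells, was next to Clu in level per length among the Sertoli cell genes, at 3.07 CPM per kb. It had 7.67 and 4.57 normalized CPM in TSSK2-IP against 0.624 and 3.68 in the controls. The groups did not overlap, but replicate 2 of the controls lay closer to TSSK2-IP than to its fellow control. Aard had the highest log2 fold change of the tested members, 1.56 ± 0.82 (SE), with an unadjusted p of 0.0783 and an adjusted p of 0.414 in edgeR's quasi-likelihood test. It ranged from 0.73 without control IgG-IP replicate 1 to 3.19 without replicate 2.

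Of the junction and cytoskeleton genes, Gja1 encodes connexin 43, the main gap junction protein between Sertoli cells and between Sertoli and germ cells. It lies on chromosome 10 (56377330 to 56402513, plus strand, GRCm38). It had 9.74 and 9.70 normalized CPM in TSSK2-IP (47 and 51 counts) against 2.18 and 5.28 in the controls (14 and 23 counts). The TSSK2-IP libraries differed by little and stood above both controls. The log2 fold change was 1.41 ± 0.59 (SE), with an unadjusted p of 0.0321 and an adjusted p of 0.342 in edgeR's quasi-likelihood test, and 0.88 without control IgG-IP replicate 1. The intermediate filament gene Vim had a log2 fold change of -0.07, with TSSK2-IP libraries on either side of the controls. Cldn11, a claudin of the blood-testis barrier, had between 3 and 15 counts, was higher in both TSSK2-IP libraries and was not tested.

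**Figure D5:**
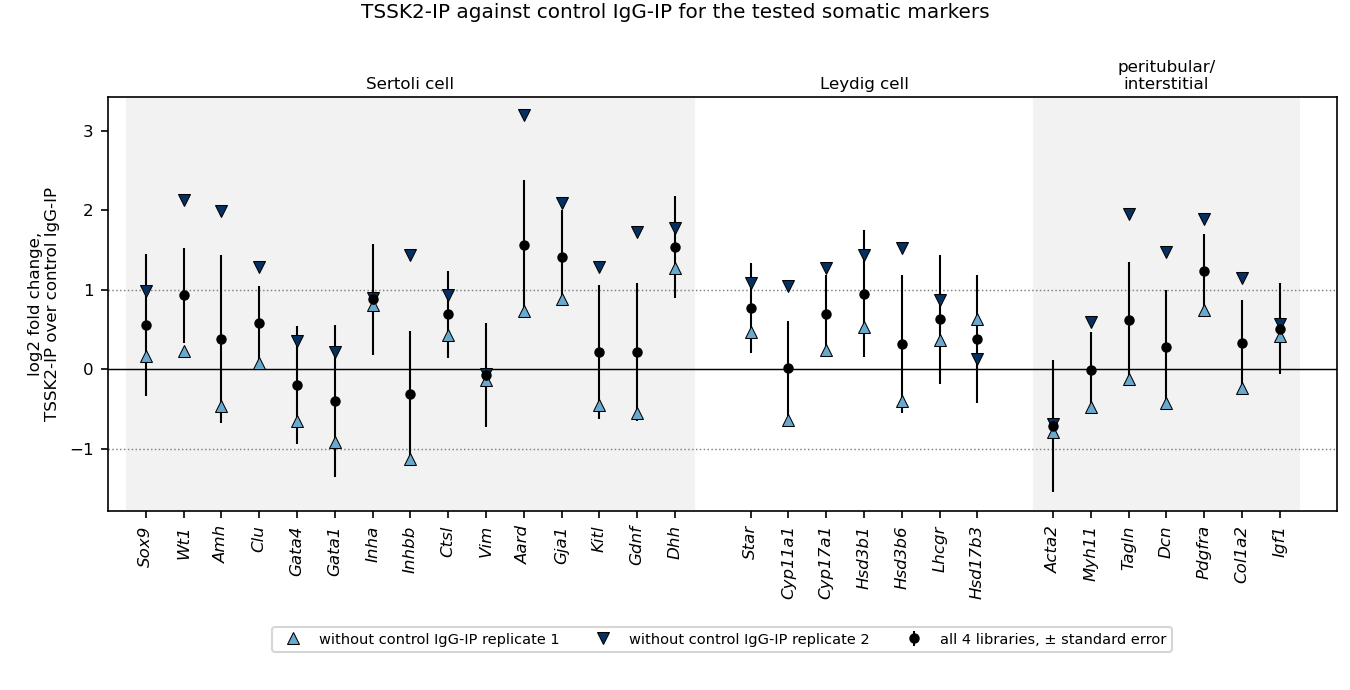
Log2 fold change of TSSK2-IP over control IgG-IP (y axis) for the 29 tested somatic markers (x axis) with all 4 libraries (black, ± standard error) and without control IgG-IP replicate 1 or replicate 2 (triangles); dotted lines mark a 2-fold change. The median is 0.51 with all libraries, 0.08 without control IgG-IP replicate 1 and 1.27 without replicate 2.

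The Leydig cell genes follow the path from luteinizing hormone to testosterone. Lhcgr, the receptor that receives the hormone, had a log2 fold change of 0.63. Star, whose product moves cholesterol into the mitochondrion, had 6.01 and 10.5 normalized CPM in TSSK2-IP against 3.74 and 5.97 in the controls. The groups were separated only narrowly, by TSSK2-IP replicate 1 and control IgG-IP replicate 2. Star had a log2 fold change of 0.77 ± 0.57 (SE; adjusted p = 0.546 in edgeR's quasi-likelihood test). Cyp11a1, which cleaves the cholesterol side chain, had a log2 fold change of 0.01 that turned to -0.13 with upper-quartile scaling.

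Cyp17a1, which carries out the hydroxylase and lyase steps towards androgens, had the highest level per length of the Leydig cell genes, 4.36 CPM per kb. It had 17.0 and 12.7 normalized CPM in TSSK2-IP against 5.93 and 12.6 in the controls. TSSK2-IP replicate 2 and control IgG-IP replicate 2 were thus almost equal, and the log2 fold change of 0.69 ± 0.49 (SE; adjusted p = 0.526 in edgeR's quasi-likelihood test) was 0.24 without control IgG-IP replicate 1. Hsd17b3, which makes testosterone from androstenedione, had 4.15 and 2.28 in TSSK2-IP against 2.81 and 2.07 in the controls. The groups overlapped, and it was the only tested member with its lowest value in control IgG-IP replicate 2. Its log2 fold change was 0.38 ± 0.80.

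Hsd3b1 and Hsd3b6 encode 3-beta-hydroxysteroid dehydrogenases and are close paralogs, so their counts are uncertain where reads fit both. Their coding sequences in GENCODE vM21, 1119 bases each without the stop codon, aligned without gaps with 112 mismatches, an identity of 90%. The stretch of 60 bases in which they differed most is shown because reads can be assigned to one of the mRNAs only where they differ. It spans coding bases 55 to 114 in both genes, on the minus strand of chromosome 3 (GRCm38), at 98857851 to 98857910 in Hsd3b1 and 98810933 to 98810992 in Hsd3b6. Capitals mark the 14 mismatched bases, and the sequences are written 5′ to 3′ along the mRNA.
Hsd3b1: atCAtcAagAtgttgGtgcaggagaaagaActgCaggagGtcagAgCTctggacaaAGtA
Hsd3b6: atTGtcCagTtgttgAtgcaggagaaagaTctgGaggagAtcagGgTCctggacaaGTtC

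The longest run without a mismatch was 72 bases, coding bases 250 to 321 of both, which spans an exon junction.
Shared run: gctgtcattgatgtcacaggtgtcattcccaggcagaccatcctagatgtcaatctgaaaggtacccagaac

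No stretch of at least 150 bases at 97% identity or more was shared by the paralogs. Hsd3b1 had 4.35 and 3.62 normalized CPM in TSSK2-IP against 1.40 and 2.76 in the controls, without overlap of the groups. Hsd3b6 had 4.35 and 2.28 in TSSK2-IP against 1.09 and 4.37 in the controls, with overlap. Per kb of exon, both were at nearly the same level, 1.63 and 1.68. The log2 fold changes were 0.95 ± 0.80 (SE) and 0.32 ± 0.87, and neither passed the test (adjusted p of 0.596 and 0.896 in edgeR's quasi-likelihood test). The difference between the paralogs was not tested.

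Insl3, the hormone of mature Leydig cells that guides testis descent in the fetus, was the only member with 0 counts in a library. It had 3 and 6 counts in TSSK2-IP against 0 and 4 in the controls, or 0.622, 1.14, 0 and 0.919 normalized CPM. A count of 0 in control IgG-IP replicate 1 allows a level of up to 0.468 normalized CPM, so no difference was detectable at this depth. Moreover, 64.8% of the exon bases of Insl3 (404 of 623) are also exon of Jak3 on the same strand of chromosome 8. Jak3 had 36 and 41 counts in TSSK2-IP against 142 and 62 in the controls, and the level of Insl3 is uncertain for this reason. Among the 34 members, only Insl3, Dhh and Ctsl shared a stretch of at least 150 bases at 97% identity or more with another gene.

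The contractile genes of peritubular myoid cells gave no common direction. Acta2, which encodes smooth muscle actin, had 3.11 and 1.14 normalized CPM in TSSK2-IP against 3.28 and 3.68 in the controls. It was the only tested member with both TSSK2-IP libraries below both controls, narrowly so for TSSK2-IP replicate 1. Acta2 had a log2 fold change of -0.71 ± 0.83 (SE; adjusted p = 0.722 in edgeR's quasi-likelihood test), and -0.16 without TSSK2-IP replicate 2.

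Myh11, the smooth muscle myosin heavy chain, had 11.6 and 12.2 in TSSK2-IP against 7.65 and 16.5 in the controls, so that the controls lay on either side of TSSK2-IP. Its log2 fold change was -0.01 ± 0.48. Tagln, which encodes the actin-binding protein transgelin, had the highest level per length of this group, 2.39 CPM per kb. It had 6.43 and 4.95 normalized CPM in TSSK2-IP against 1.40 and 6.20 in the controls. The groups overlapped, and the log2 fold change of 0.62 ± 0.73 was -0.12 without control IgG-IP replicate 1. Of the exon bases of Tagln, 62.4% lie opposite the antisense gene Gm48529 and 5.43% opposite Pcsk7. Since the strand setting of the counting is not given in the sources used here, the level of Tagln is uncertain to that extent.

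Pdgfra, a receptor for platelet-derived growth factors on interstitial and peritubular cells and their progenitors, had the most counts of the 34 markers and the smallest p. It lies on chromosome 5 (75152292 to 75198215, plus strand, GRCm38). Its level was 22.2 and 26.8 normalized CPM in TSSK2-IP (107 and 141 counts) against 6.40 and 14.7 in the controls (41 and 64 counts). Both TSSK2-IP libraries were above both controls, and the controls were themselves more than 2-fold apart. The log2 fold change was 1.23 ± 0.47 (SE), with an unadjusted p of 0.0202 and an adjusted p of 0.305 in edgeR's quasi-likelihood test. Leaving out control IgG-IP replicate 1 gave 0.74 (adjusted p = 0.0582 in the same test), and leaving out replicate 2 gave 1.89 (adjusted p = 2.81e-08).

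Dcn and Col1a2, which encode the matrix proteoglycan decorin and a chain of collagen I, had log2 fold changes of 0.28 and 0.33 with overlapping groups. Igf1, a growth factor of the interstitium, had 0.51, with both TSSK2-IP libraries above both controls.

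Further genes of the same cell types had medians near 0 with all 4 libraries, and these too turned with the control library used. Of 20 further Sertoli cell genes, 17 were tested, 8 had a log2 fold change above 0 and the median was -0.10. The smallest p was that of Nr5a1, which encodes steroidogenic factor SF-1. It had 18.7 and 18.1 normalized CPM in TSSK2-IP against 6.08 and 8.73 in the controls, a log2 fold change of 1.32 ± 0.45 (SE; adjusted p = 0.263 in edgeR's quasi-likelihood test), and was the only one of them at an unadjusted p under 0.05. Of 18 further genes of cholesterol and steroid synthesis, 14 were tested, 7 were above 0, the median was 0.01 and none reached an unadjusted p under 0.05. Of 20 further genes of peritubular cells and matrix, 15 were tested and 8 were above 0, with a median of 0.01. Only Col3a1, a fibrillar collagen gene, reached an unadjusted p under 0.05, with 9.95 and 12.4 normalized CPM in TSSK2-IP against 2.96 and 6.20 in the controls, a log2 fold change of 1.30 ± 0.55 and an adjusted p of 0.342 in the same test. None of the genes in these lists was called in either direction with all libraries. Without control IgG-IP replicate 1, the medians were -0.25 for further Sertoli cell genes, -0.18 for steroid synthesis and -0.41 for peritubular and matrix genes. With replicate 2 of the controls left out, they were 0.78, 0.15 and 0.42. Nr5a1 ranged between 1.07 and 1.54 over these fits and Col3a1 between 0.85 and 1.86. These fits keep a lone control library, so calls in them are not given for the further lists.

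Markers of other cells of the testis were set beside these values. No gene of the macrophage, endothelial or red blood cell lists was called with all libraries. On the log2 scale the median fold change was -0.20 for the 7 tested macrophage genes and -0.01 for the 9 endothelial genes. These medians moved to -0.53 and -0.58 without control IgG-IP replicate 1 and to 0.29 and 0.78 without replicate 2. The only tested red blood cell gene, Alas2, which encodes an enzyme of heme synthesis, was at -0.72. Germ cell lists had medians of 0.09 for 8 spermatogonial, -0.07 for 10 spermatocyte and -0.09 for 15 spermatid genes. None of their genes was called with all libraries. In the same order these were -0.20, 0.05 and 0.05 without control IgG-IP replicate 1, and 0.47, -0.23 and -0.21 without replicate 2. The gene with the smallest p in all these lists was Gfra1, the receptor subunit for the Sertoli cell product GDNF on spermatogonia. It had 3.94 and 3.43 normalized CPM in TSSK2-IP against 14.4 and 11.3 in the controls. Its log2 fold change of -1.80 ± 0.51 (SE) had an adjusted p of 0.173 in edgeR's quasi-likelihood test. Dropping a control library moved the fold change of Gfra1 to -1.60 (control IgG-IP replicate 1 dropped) or -2.01 (replicate 2 dropped). The ligand gene Gdnf, at 0.22 ± 0.87, showed no such separation of the groups.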

How the data were processed

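The authors used Trimmomatic 0.39 for trimming, STAR (2.7.10a per the labels) for mapping to GRCm38 and featureCounts 2.0.3 for counting per gene. The deposited values are raw counts without normalization. The strand setting and the treatment of reads that overlap several genes are not given in the sources used here. Per the labels, directional libraries were made without rRNA removal.

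Of 21936 identifiers, 21817 were named through GENCODE vM21, and 119 were not found there. The counts were fitted with edgeR 4.0.16 in R 4.3.3 (TMM, filterByExpr, glmQLFit, glmQLFTest) over 14722 genes, with a common dispersion of 0.135, and p-values were adjusted over all of them. The fits were also run on simulated data, drawn with the same spread in every library. The simulation held no difference in composition between the control libraries, so it does not show how the fits handle one. Log2 CPM used a prior count of 2. Exon lengths are unions of GENCODE exons, and BLAST+ 2.17.0 was used to find sequence that members share with other genes. The members, the further lists and the rule for naming genes were chosen with earlier results of these data known. The rule gave full values for members at an unadjusted p under 0.05, members at least 2-fold apart in every pair of libraries, the highest per kb, defining genes and the Hsd3b paralogs, and named at most 3 genes of each further list. As alternatives, the table was fitted by DESeq2 1.42.0, by edgeR with upper-quartile scaling or with the size factors of DESeq2, without a filter (21267 genes), with a minimum of 10 counts in each library (12540 genes), with the replicate number as a block, and with each library left out. The description of genes in the members' abundance range was added after seeing the data. DDX4-IP libraries were not used here.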

Additional observations from a re-analysis of the deposited data

How the results depend on the processing

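No marker was called in either direction under DESeq2, DESeq2's size factors, upper-quartile scaling, either filter or the replicate block, and the smallest adjusted p of a member lay between 0.19 and 0.374 over these edgeR and DESeq2 fits. Leaving out each library in turn gave between 0 and 11 members called higher and 0 called lower. The count at an unadjusted p under 0.05 was 3 higher, 0 under upper-quartile scaling (5.91% of all tested genes) and between 0 and 16 with a library left out, and 0 lower, between 0 and 1 with a library left out (Inhbb, without control IgG-IP replicate 1). With a library left out, median log2 fold changes ranged from 0.08 to 1.28 in Sertoli cell, 0.37 to 1.09 in Leydig cell and -0.23 to 1.15 in peritubular and interstitial genes. The median over all tested genes was -0.02, and -0.14 with DESeq2's size factors on the same genes, a shift against which values in that scaling are to be read. It was -0.20 with DESeq2 and -0.15 without the filter, both over 21267 genes, and 0.15 without control IgG-IP replicate 2. Genes called higher over the whole table numbered 102, and 160 with DESeq2, 20 with upper-quartile scaling, 283 without the filter, 29 with at least 10 counts and 274 with the replicate block.

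Among single members near 0, Cyp11a1 turned to -0.02 with DESeq2, -0.09 with its size factors and -0.13 with upper-quartile scaling, and Myh11 to 0.02 with at least 10 counts. Over 14722 genes, the differences between replicates in the 2 groups correlated with r = 0.13. This value cannot decide whether same-numbered libraries are paired. The difference had a standard deviation of 1.08 between the controls against 0.47 between the TSSK2-IP libraries. With the replicate block, 4 members were higher at an unadjusted p under 0.05 in edgeR's test, beside 9.23% of all tested genes. None was called in this fit, beside 1.86% of all tested genes called higher and 0.0204% called lower. Inhbb turned to 0.06 and Myh11 to 0.07 with the block. With a library left out, 14 members changed sign. Their ranges were -0.46 to 1.99 (Amh), -0.82 to 0.35 (Gata4), -1.24 to 0.22 (Gata1), -1.13 to 1.44 (Inhbb), -0.36 to 0.18 (Vim), -0.45 to 1.28 (Kitl), -0.55 to 1.73 (Gdnf), -0.64 to 1.05 (Cyp11a1), -0.40 to 1.52 (Hsd3b6), -0.10 to 0.75 (Hsd17b3), -0.47 to 0.59 (Myh11), -0.12 to 1.95 (Tagln), -0.42 to 1.47 (Dcn) and -0.23 to 1.15 (Col1a2). The cause was not tested. Depth limits these results: 17 of 34 members had under 10 counts in at least 1 library, and no member had more than 141.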
